A study of Mus musculus with 56 samples.

Results

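The 10 genes described here regulate iron in the whole body and in the liver cell: the hepcidin genes Hamp and Hamp2, the sensing genes Hfe, Hfe2, Tfr2 and Bmp6, the uptake receptor Tfrc, the exporter Slc40a1, and the ferritin subunits Fth1 and Ftl1. They were chosen by name, with earlier results of these data known, because Hfe and Hfe2 are reported targets of the liver microRNA miR-122 upstream of hepcidin. All 10 were found among the 21888 gene symbols of the RNA-seq table, Tfr2 under its older symbol Trfr2, and all 10 passed the filter of a mean of at least 1 FPKM (fragments scaled by transcript length and library size), as did 11354 genes in all.

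Livers of 14 mice were sequenced, 1 library per animal. Of these, 11 mice (strain 129Sv/J in the labels) carried LoxP sites around the miR-122 gene: 3 were uninjected (day 0), and the others were taken after a tail-vein dose of rAAV8-Ef1a-Cre, a viral vector whose Ef1a promoter is not restricted to hepatocytes. Livers came from 3 mice 21 days after the dose, from 3 mice after 45 days, and from single mice after 100 and 200 days. The remaining 3 mice were germline miR-122 knockouts. Among these 14 mice no uninjected mouse is labelled with the later days and none with a vector without Cre, so loss of miR-122, the vector and age cannot be told apart, and the knockout cannot be told apart from its colony. The days 100 and 200 mice were fitted as 1 group. miR-122 took 66.4% ± 7.06 (SD, n = 3) of microRNA reads in day 0 livers, 11.3% ± 2.70 (n = 3) after 21 days, 0.839% ± 0.426 (n = 3) after 45 days, 4.46% in the day 100 mouse and 19.1% in the day 200 mouse. No small RNA library of the knockout was analysed here.

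Hepatocytes secrete hepcidin, a peptide that binds ferroportin, the product of Slc40a1, and makes iron-exporting cells take it in and degrade it, so that less iron enters the blood. Hepcidin transcription follows body iron through bone morphogenetic protein signalling: BMP6 from the liver endothelium acts on receptors on the hepatocyte together with the coreceptor hemojuvelin (the product of Hfe2), HFE and transferrin receptor 2, and SMAD proteins carry the signal to the gene, while inflammation acts through STAT3. Inside the cell, iron regulatory proteins bind hairpins in messenger RNAs, holding back translation of ferritin and ferroportin and protecting the transferrin receptor message when iron is scarce.

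Some libraries stood apart from their groups. Knockout C correlated less with the other knockouts (mean r = 0.888 across genes on the log2 scale) than with the day 0 libraries (0.929), whereas knockouts A and B had means of 0.933 and 0.941 within their group and of 0.837 and 0.842 with day 0. In each group of 3, 1 library held Y-linked transcripts (Ddx3y over 1 FPKM): day 0 B, day 21 C, day 45 C and knockout C, 4 of 14 in all, and neither late mouse did. From the smallest steps of the FPKM values the normalising total, in units of 1e6 fragments, was about 45.1 to 50.5 in day 0 libraries, 32.5 to 42.0 (day 21), 36.0 to 48.0 (day 45), 36.7 to 37.1 (late days) and 21.4 to 27.3 (knockout). On that scale the lowest member value, Bmp6 in day 0 A, rested on about 171 fragments, a counting error of about 8%. Kupffer cell and macrophage markers summed to 184 to 338 FPKM (day 0), 458 to 509 (day 21), 612 to 653 (day 45), 349 to 368 (late days) and 203 to 496 (knockout). Albumin was listed at 0 in all 14 libraries and Serpina1a in 10, as very abundant genes can be in these files, and the other 4 hepatocyte markers summed to 13417 to 29205 FPKM per library.

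Hfe2 and Bmp6, on the BMP side of the pathway, took most of the members' calls. In limma with Benjamini-Hochberg adjustment over all genes, 1 of the 10 members passed an adjusted p of 0.05 at day 21 against day 0 (7.62% of all tested genes did), 2 at day 45 (26.7%), 3 at days 100 and 200 (31.6%) and 3 in the knockout (33.8%). The median log2 change of the 10 was 0.26, 0.60, 0.44 and 0.57 in these 4 comparisons, against 0.06, 0.20, 0.31 and 0.02 over all tested genes. All mice were above the highest day 0 mouse for 2, 5, 6 and 4 members (25.2%, 40.5%, 52.9% and 21.1% of all tested genes) and below the lowest for 1, 1, 1 and 0 (13.1%, 9.37%, 11.6% and 13.3%). The 4 comparisons share the day 0 mice.

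**Figure D1:**
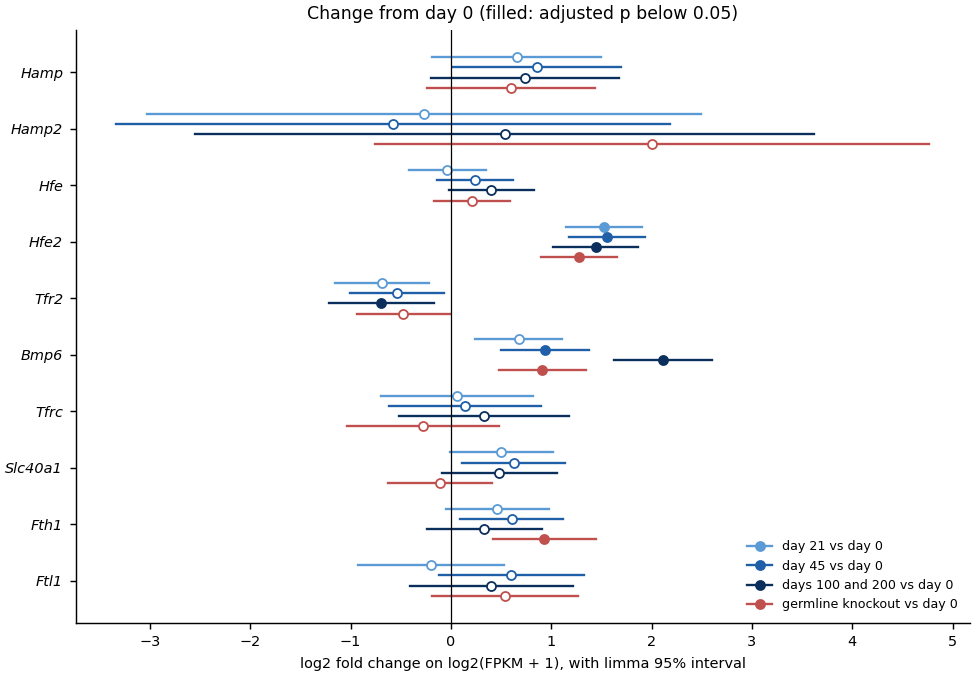
Log2 fold change of each iron gene from day 0 in 4 comparisons, on the log2(FPKM + 1) scale, with limma's 95% interval. Filled points passed an adjusted p of 0.05. Hfe2 lies between 1.28 and 1.55 in all 4, Bmp6 reaches 2.11 at days 100 and 200, and the intervals of Hamp2 are the widest.

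Hfe2 (chr3:96329108-96333139, mm9), which encodes hemojuvelin, the BMP coreceptor that hepatocytes need to make hepcidin, was higher in every group with reduced or deleted miR-122 than at day 0. Its FPKM were 40.0, 30.4 and 49.7 in the day 0 mice, 118, 108 and 119.9 at day 21, 111, 118 and 123 at day 45, 104 at day 100, 113 at day 200, and 111, 86.1 and 94.7 in the knockout. No value of the other groups fell into the day 0 range, and the lowest of them, knockout B, was above the highest day 0 mouse.

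The log2 fold change of Hfe2 was 1.53 ± 0.17 (SE) at day 21 (adjusted p = 0.0025, limma; 2.88-fold of the means) and 1.55 ± 0.17 at day 45 (adjusted p = 0.00023; 2.93-fold). It was 1.44 ± 0.19 at days 100 and 200 (adjusted p = 0.00027; 2.71-fold) and 1.28 ± 0.17 in the knockout (adjusted p = 0.00043; 2.43-fold). Between day 21 and day 45, while the miR-122 share still fell from 11.3% to 0.839%, Hfe2 differed by 0.03 (95% interval -0.35 to 0.40). The late days differed from day 45 by -0.11 (-0.53 to 0.31), also where the miR-122 share of the day 200 mouse was 19.1%. Knockout C, which resembled day 0 across genes, had Hfe2 at 94.7 FPKM, between the other knockouts. Hfe2 passed the test in all 58 alternative values of these 4 comparisons.

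Hfe (chr13:23795710-23802680), which encodes the membrane protein mutated in hereditary haemochromatosis, is the other reported target, and it did not pass the test in any comparison. Hfe was at 32.6, 29.8 and 34.0 FPKM at day 0, 32.5, 30.7 and 30.7 at day 21, 39.1, 37.1 and 38.1 at day 45, 39.1 at day 100, 46.6 at day 200, and 46.1, 41.5 and 27.1 in the knockout. Day 21 overlapped day 0, day 45 and the late days lay above it, and the knockout spanned it, with knockout C the lowest of all 14. The log2 fold changes were -0.04 (95% interval -0.42 to 0.35), 0.24 (-0.14 to 0.62), 0.40 (-0.02 to 0.83) and 0.21 (-0.17 to 0.59), with adjusted p from 0.143 to 0.952 (limma), so each interval excludes a change as large as that of Hfe2. Without knockout C the knockout value was 0.43 ± 0.11 and passed (adjusted p = 0.0061), when 62.4% of all genes did. The ratio of Hfe2 to Hfe ranged from 1.02 to 1.46 in day 0 mice and from 2.08 to 3.91 in the other 11.

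Bmp6 (chr13:38437585-38591597), the iron-induced ligand of the pathway, had the lowest mean of the members in every group but the late days, and the largest change of them there. It was at 1.01, 1.56 and 2.11 FPKM at day 0, 2.92, 2.60 and 3.65 at day 21, 2.93, 4.05 and 4.68 at day 45, 11.1 at day 100, 8.84 at day 200, and 4.22, 4.08 and 3.00 in the knockout. All other mice were above the highest day 0 mouse, and both late mice were above every other library. The log2 fold change was 0.68 ± 0.20 at day 21, which missed the threshold (adjusted p = 0.061, limma), 0.94 ± 0.20 at day 45 (adjusted p = 0.0048; 2.49-fold of the means), 2.11 ± 0.22 at days 100 and 200 (adjusted p = 7.9e-05; 6.39-fold) and 0.91 ± 0.20 in the knockout (adjusted p = 0.0063; 2.41-fold). The addition of 1 FPKM before the log understates these changes, and with 0.1 FPKM the day 21 value was 0.97 (adjusted p = 0.041).

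A comparison of the late days with day 45, added after the values were seen, gave Bmp6 1.18 ± 0.22 (2.57-fold; adjusted p = 0.060, with 0.22% of all genes called), the only member of 10 with an unadjusted p under 0.05. Leaving out 1 mouse at a time moved its adjusted p to between 0.048 (without day 45 B) and 0.559 (without day 100). The summed markers of sinusoidal endothelium, 7 genes, were 96.2 to 166 FPKM at day 0, 185 to 193 at day 45, 176 to 192 at the late days and 78.2 to 93.0 in the knockout. Most of that sum was Clec4g (99.3 to 117 FPKM at day 45, 105 and 120.0 at the late days), and of the other 6 genes Stab1 was higher in both late mice (12.2 and 12.4) than in the day 45 mice (8.38 to 11.3), Kdr was lower (11.02 and 14.4 against 16.7 to 18.8), and the rest overlapped. Those of stellate cells and fibroblasts, 6 genes, were 131 to 178, 314 to 425, 421 to 473 and 144 to 267 in the same groups. Most of that sum was Dcn (means 144, 299, 390 and 157). In the knockout Col1a1 (mean 9.80 against 0.824 at day 0), Pdgfrb (5.83 against 1.92) and Des (7.22 against 2.51) were higher than at day 0. Dcn, Reln and Lrat were not called there. In whole liver, fewer cells of a type and less RNA per cell cannot be told apart, and the part of these cells in the Bmp6 values was not tested.

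Tfr2 (chr5:138011079-138028709), the transferrin receptor that hepatocytes use to sense iron-loaded transferrin, was the member with lower values after Cre. Its FPKM were 166, 149 and 175 at day 0, 111, 100.9 and 91.0 at day 21, 119, 104 and 113 at day 45, 92.5 at day 100, 109 at day 200, and 151, 137 and 78.1 in the knockout. Every Cre-injected mouse was below the lowest day 0 mouse, whereas the knockout overlapped day 0 through knockout A. The summed hepatocyte markers, 4 genes, were 25355 to 27968 FPKM at day 0, 24185 to 25140.5 at day 21 and 19263 to 25221 at day 45. They were 13417 to 21867 at the late days and 21855 to 29205 in the knockout. Of these Apoa1 was below every day 0 mouse at day 21, day 45 and the late days. Cyp2e1 was above them at day 21 and below at the late days, and Ttr and Cps1 overlapped day 0. The part of hepatocytes in the Tfr2 values was not tested. The log2 fold changes of Tfr2 were -0.69 ± 0.22 (adjusted p = 0.073), -0.54 ± 0.22 (adjusted p = 0.084), -0.69 ± 0.24 (adjusted p = 0.044) and -0.47 ± 0.22 (adjusted p = 0.10) in limma, of which the value of the late days passed. Between day 45 and day 21 Tfr2 differed by 0.15 (95% interval -0.32 to 0.62), and between the late days and day 45 by -0.15 (-0.68 to 0.37), neither of which passed. The call at the late days was lost without any 1 of its 5 mice (adjusted p = 0.062 to 0.276). Without knockout C the knockout value was -0.18 ± 0.14 (adjusted p = 0.27), and the knockout was higher than day 45 by 0.36 ± 0.14 (adjusted p = 0.047), when 62.4% and 52.2% of all genes passed. The day 21 and day 45 values passed without the libraries with Y-linked transcripts (adjusted p = 0.036 and 0.015), when 5.65% and 29.4% of all genes did. They also passed with only the 2 groups compared (adjusted p = 0.020 and 0.016), when 15.6% and 33.9% of all genes did. With Y-linked transcripts as a covariate they passed too (adjusted p = 0.038 and 0.043, with 8.93% and 29.1% of all genes). With centring the day 45 value passed (adjusted p = 0.033, with 21.5% of all genes).

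**Figure D2:**
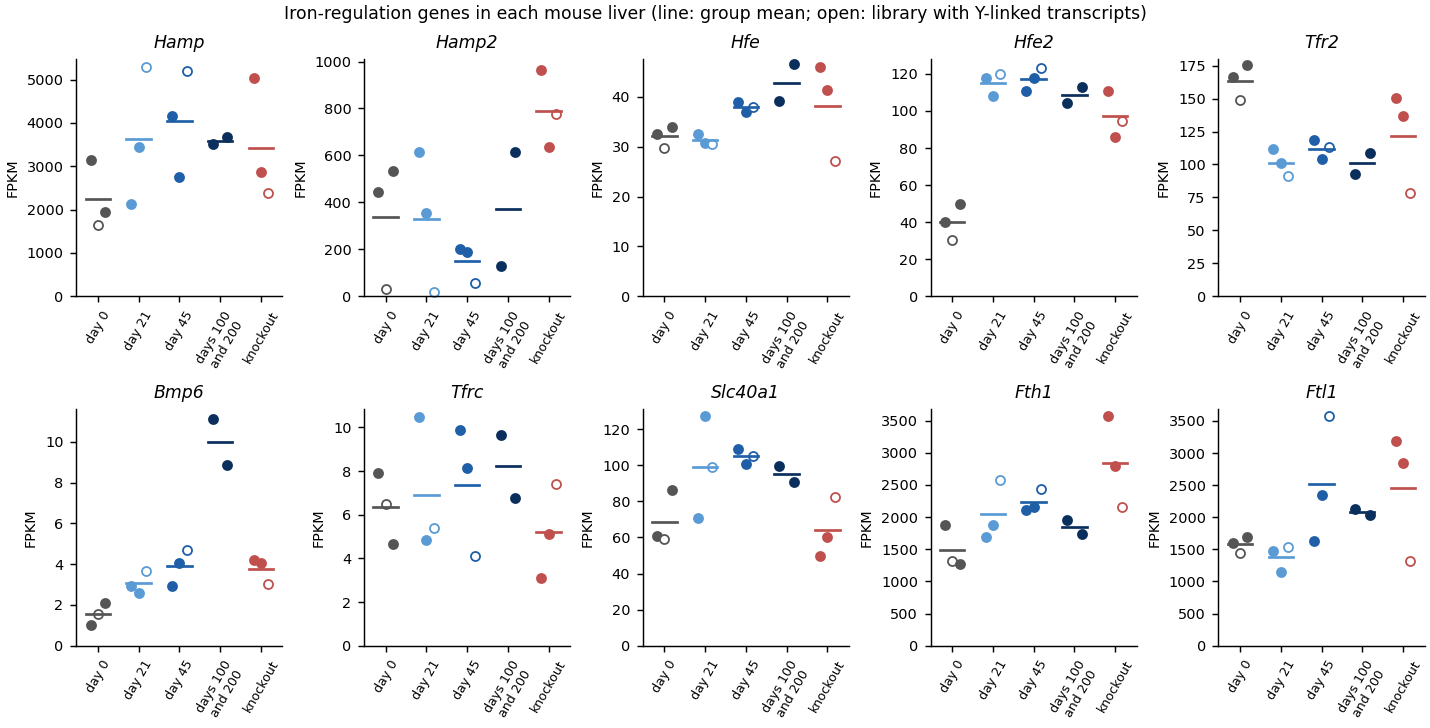
FPKM of the 10 iron genes in each of the 14 livers, by group, each panel on its own axis from 0. Lines are group means and open points are the libraries with Y-linked transcripts. Hfe2 separates day 0 (30.4 to 49.7) from all other mice, Bmp6 is highest in the late mice (8.84 and 11.1), and Tfr2 is lower in all 8 Cre-injected mice.

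Of 6 genes that BMP-SMAD signalling is known to induce in hepatocytes (Id1, Id2, Id3, Smad6, Smad7 and Atoh8), none passed at day 21 (2 had an unadjusted p under 0.05, limma), 4 were higher at day 45 (23.7% of all tested genes were), 3 at the late days (28.4%) and 2 in the knockout (19.3%). Their median log2 change was 0.18, 1.03, 1.15 and 0.52 in these comparisons. Id1, an inhibitor of helix-loop-helix factors, was at 4.38 to 12.9 FPKM at day 0, 28.5 to 33.8 at day 45, 37.2 and 50.7 at the late days, and 6.06 to 22.8 in the knockout. Its log2 fold change was 2.14 ± 0.44 at day 45 (adjusted p = 0.0038) and 2.58 ± 0.49 at the late days (adjusted p = 0.0018), with no overlap with day 0. Smad6 and Smad7, the inhibitory SMADs that dampen the same signal, rose by 1.08 ± 0.21 and 0.98 ± 0.19 at day 45, by 1.39 ± 0.23 and 1.34 ± 0.21 at the late days, and by 0.57 ± 0.21 and 0.55 ± 0.19 in the knockout (adjusted p from 0.00065 to 0.048). Both knockout calls were lost without day 0 B, day 0 C, knockout A or knockout B, with only the 2 groups compared, with no filter and with a replicate block. In those fits 7.31% to 15.9% of all genes were higher. Without knockout C 4 of 6 genes were higher and 1 lower, when 31.7% of all genes were higher and 30.7% lower. Without the libraries with Y-linked transcripts the counts were 3 at day 45 and 4 at the late days (24.7% and 33.9% of all genes were higher), and in the knockout 4 were higher and 1 lower (28.6% and 28.8%). Markers of some other cells moved with these genes, and those of others did not. At day 45, at the late days and in the knockout, 5, 6 and 3 of 6 stellate cell and fibroblast markers, 4, 4 and 1 of 4 proliferation markers and 3, 3 and 1 of 3 lymphocyte markers were higher than at day 0. Of 7 sinusoidal endothelium markers 1, 2 and 0 were higher, with 3 lower in the knockout (14.5% of all genes were lower there). Of 4 erythroid and 4 hepatocyte markers none was higher, and 1 hepatocyte marker was lower at the late days (3.21% of all genes were). The summed proliferation markers were 1.45 to 6.30 FPKM at day 0, 10.8 to 20.5 at day 45, 13.3 to 36.8 at the late days and 3.64 to 13.2 in the knockout, and the lymphocyte markers 2.70 to 5.59, 13.4 to 18.2, 17.5 to 19.0 and 6.07 to 6.53. The part of these cells in the values was not tested.

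**Figure D3:**
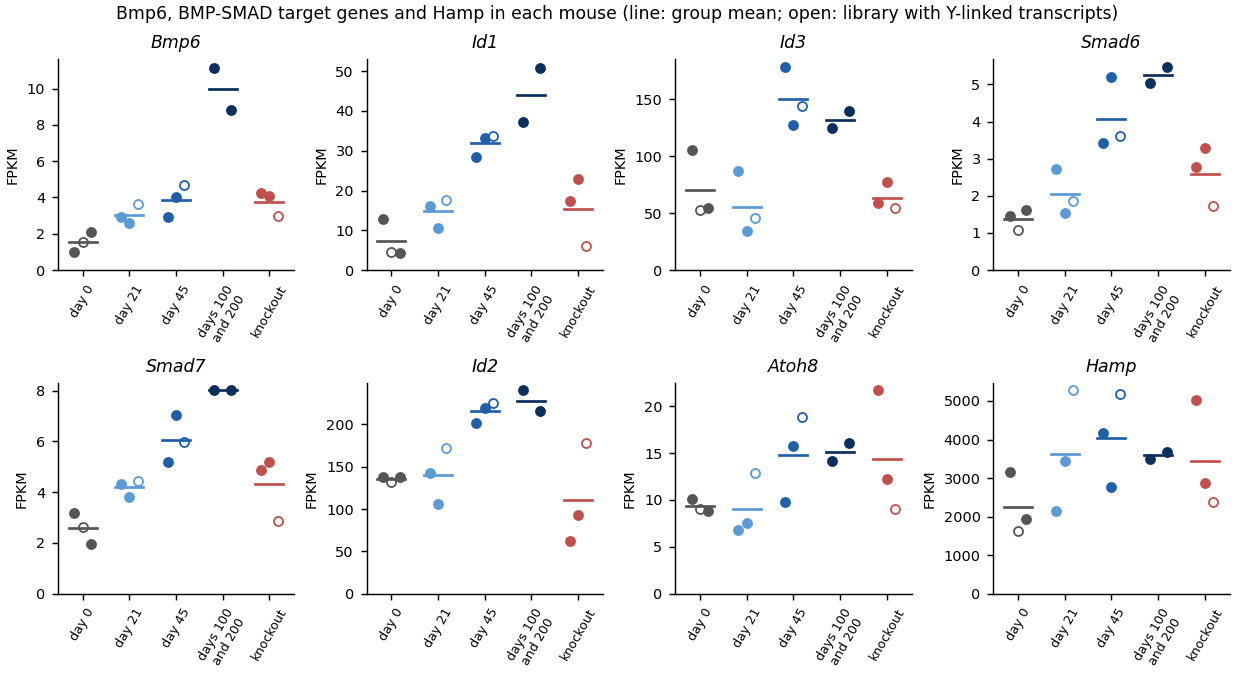
FPKM of Bmp6, 6 BMP-SMAD target genes and Hamp in each liver, by group, each panel on its own axis from 0. Lines are group means and open points are libraries with Y-linked transcripts. Id1, Smad6 and Smad7 lie above day 0 in all 3 day 45 mice and both late mice, whereas Hamp at day 45 overlaps day 0.

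Hamp and Hamp2 are neighbouring copies of the hepcidin gene, and in these files reads could be divided between them in a way that is not stated. Hamp (chr7:31727388-31729036) encodes the hormone hepcidin-1, and Hamp2 (chr7:31707391-31709200) encodes a related peptide. Their promoters, from RefSeq on GRCm38.p6 (250 bases before to 50 after the start), are shown because the BMP and inflammatory signals act there. Hamp is at chr7:30943980-30944279 and Hamp2 at chr7:30924132-30924431, both on the minus strand. Capitals mark the letters GGCGCC, the core of a BMP-responsive element, and TTCNNNGAA, the letters STAT factors bind. Both motifs read the same on either strand, and they do not overlap.
Hamp: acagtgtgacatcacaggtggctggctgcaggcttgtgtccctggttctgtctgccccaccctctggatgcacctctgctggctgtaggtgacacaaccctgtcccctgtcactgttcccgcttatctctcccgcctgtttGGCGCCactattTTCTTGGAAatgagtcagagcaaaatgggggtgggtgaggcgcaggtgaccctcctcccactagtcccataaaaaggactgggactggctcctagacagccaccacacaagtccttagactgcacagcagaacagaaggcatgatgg
Hamp2: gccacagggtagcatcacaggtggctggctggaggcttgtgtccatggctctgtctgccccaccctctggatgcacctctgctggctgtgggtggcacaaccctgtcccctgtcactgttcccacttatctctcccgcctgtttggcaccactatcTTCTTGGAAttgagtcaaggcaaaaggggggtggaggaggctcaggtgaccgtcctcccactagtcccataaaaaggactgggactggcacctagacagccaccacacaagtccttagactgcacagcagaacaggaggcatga

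The promoters were identical at 276 of 297 aligned bases (92.9%). The difference G145A, counted from the first printed base of Hamp, falls inside GGCGCC, so those letters are not in the Hamp2 window, while the STAT letters are in both. Of 32851 promoters of the same length, 11.9% held GGCGCC and 8.3% held TTCNNNGAA. Of the 8 members found among them by symbol (Hfe2 and Slc40a1 were not found under these symbols), Hamp and Tfrc held the first and Hamp and Hamp2 the second.

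Hamp was the most abundant member in each group by its mean, but the mice varied too widely for any comparison to pass. It was at 3147, 1636 and 1935 FPKM at day 0, 2138, 3435 and 5291 at day 21, 4162, 2761 and 5192 at day 45, 3506 at day 100, 3673 at day 200, and 5037, 2878 and 2374 in the knockout. The groups overlapped day 0 except the late days, whose 2 mice were above it. The means were 1.62-fold, 1.80-fold, 1.60-fold and 1.53-fold that of day 0, with log2 changes of 0.65 (95% interval -0.18 to 1.49), 0.86 (0.02 to 1.70), 0.74 (-0.20 to 1.67) and 0.60 (-0.24 to 1.43) and adjusted p from 0.124 to 0.365 (limma). At day 45 its unadjusted p was 0.045, and a change of Hamp was not resolved among mice this variable. Summing Hamp and Hamp2 as 1 gene gave adjusted p from 0.125 to 0.333.

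Hamp2 varied widely between mice of a group, with a coefficient of variation of 20.8% in the knockout and 53.4% to 92.3% in the other groups. It was at 446, 29.8 and 535 FPKM at day 0, 616, 356 and 18.2 at day 21, 200.3, 189.9 and 57.4 at day 45, 129 at day 100, 613 at day 200, and 963, 635 and 775 in the knockout. All 3 knockouts were above the highest day 0 mouse, and the other groups overlapped day 0. The log2 changes had standard errors of 1.27 to 1.42 and adjusted p from 0.228 to 0.949 (limma). Of the floxed mice, the lowest value in each group of 3 belonged to the library with Y-linked transcripts (29.8, 18.2 and 57.4), whereas knockout C, which also held them, was at 775. The part of this in the spread was not tested. Without the 4 libraries with Y-linked transcripts Hamp2 was higher in the knockout than at day 45 (log2 change 2.00, adjusted p = 0.0198, against 2.58 ± 1.27 and adjusted p = 0.162 with all), in a fit where 49.5% of all genes passed. Hamp2 made up 0.342% of the summed FPKM of both genes in day 21 C and 24.6% in knockout C.

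**Figure D4:**
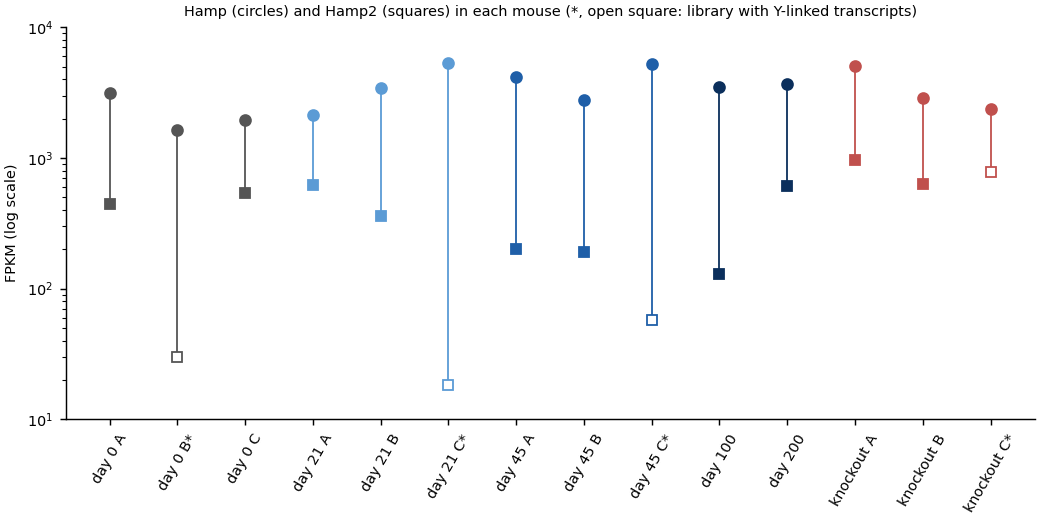
FPKM of Hamp (circles) and Hamp2 (squares) in each liver on a log axis, joined by a line for each mouse. Stars and open squares mark libraries with Y-linked transcripts. Hamp stays between 1636 and 5291, while Hamp2 runs from 18.2 (day 21 C) to 963 (knockout A).

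Iron import, export and storage are set in part after transcription, through iron-responsive elements. The 30-base windows below were found in the GENCODE vM1 transcripts of the members by the letters CNNNNNCAGTGN with 5 pairing bases on each side of the loop, and each matches the mm9 genome. They are shown because messenger RNA levels report this control for Tfrc, whose message the elements stabilise, and not for the other 3, where they act on translation. Capitals mark the 6-base loop.
Fth1, 5′ UTR, chr19:10057222-10057251, plus strand: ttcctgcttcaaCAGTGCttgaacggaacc
Ftl1, 5′ UTR, chr7:52715148-52715177, minus strand: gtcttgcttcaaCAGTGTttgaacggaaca
Slc40a1, 5′ UTR, chr1:45982309-45982338, minus strand: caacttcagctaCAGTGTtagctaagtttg
Tfrc, 3′ UTR, chr16:32631305-32631334, plus strand: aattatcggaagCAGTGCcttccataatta
Tfrc, 3′ UTR, chr16:32631684-32631713, plus strand: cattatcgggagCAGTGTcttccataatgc
Tfrc, 3′ UTR, chr16:32631749-32631778, plus strand: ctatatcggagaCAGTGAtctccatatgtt
Tfrc, 3′ UTR, chr16:32631796-32631825, plus strand: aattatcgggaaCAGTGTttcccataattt

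The same pattern was present in the 5′ UTR of 22 of 19854 genes and in the 3′ UTR of 92 of 19915, and 1 gene, Tfrc, held it more than once in its 3′ UTR.

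Tfrc (chr16:32608982-32632880), transferrin receptor 1, the main door for transferrin iron, did not pass the test in any comparison. Tfrc was at 7.92, 6.50 and 4.65 FPKM at day 0, 10.5, 4.86 and 5.40 at day 21, 9.87, 8.14 and 4.09 at day 45, 9.66 at day 100, 6.77 at day 200, and 3.11, 5.14 and 7.40 in the knockout. Every group overlapped day 0. The log2 changes ran from -0.28 (95% interval -1.04 to 0.48) in the knockout to 0.33 (-0.51 to 1.18) at the late days, with adjusted p from 0.545 to 0.958 (limma).

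Slc40a1 (chr1:45964915-45982439), ferroportin, the only known iron exporter of mammalian cells and abundant in macrophages, had higher means after Cre than at day 0, none of which passed. It was at 60.7, 59.3 and 86.4 FPKM at day 0, 70.7, 127 and 99.3 at day 21, 109, 100.7 and 105 at day 45, 99.3 at day 100, 90.9 at day 200, and 49.5, 60.5 and 82.5 in the knockout. Day 45 and the late days lay above day 0, and day 21 and the knockout overlapped it. The log2 changes were 0.50 ± 0.24 (adjusted p = 0.24), 0.63 ± 0.24 (adjusted p = 0.071), 0.48 ± 0.26 (adjusted p = 0.19) and -0.11 ± 0.24 (adjusted p = 0.74) in limma. The knockout was below day 45 in all 3 mice, by -0.73 ± 0.24 (adjusted p = 0.062), and by -0.93 ± 0.23 without knockout C (adjusted p = 0.0055, when 52.2% of all genes passed). Of 7 Kupffer cell and macrophage markers 2, 7, 3 and 2 were higher in the 4 comparisons with day 0 (6.2%, 23.7%, 28.4% and 19.3% of all genes were). In the knockout 4 of 7 were lower than at day 45, as were 5 of 7 sinusoidal endothelium markers (9.44% of all genes were called). From day 45 to the late days the summed macrophage markers went from 612 to 653 FPKM to 349 to 368, while the Slc40a1 mean went from 105 to 95.1. Within that sum the means of Cd5l (234 to 116), Clec4f (153 to 75.6), Vsig4 (91.2 to 57.2) and Marco (49.3 to 15.9) fell most. Those of Csf1r (56.2 to 47.6), Cd68 (28.4 to 22.9) and Emr1 (26.0 to 23.3) changed less. The part of these cells in the Slc40a1 values was not tested.

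Fth1 (chr19:10057193-10059582) and Ftl1 (chr7:52713314-52715256) encode the heavy and light chains of ferritin, the iron store, and both have processed copies elsewhere in the genome with which reads can be shared. Fth1 was at 1878, 1314 and 1268 FPKM at day 0, 1698, 1872 and 2575 at day 21, 2106, 2159 and 2432 at day 45, 1951 at day 100, 1738 at day 200, and 3571, 2802 and 2163 in the knockout. Day 45 and the knockout lay above day 0, and the other groups overlapped it. Fth1 was higher in the knockout by 0.93 ± 0.24 on the log2 scale (adjusted p = 0.012, limma; 1.91-fold of the means), a call lost without knockout A (0.75, adjusted p = 0.057). At day 45 it was at 0.61 ± 0.24 (adjusted p = 0.078), at day 21 at 0.46 ± 0.24 (adjusted p = 0.29) and at the late days at 0.33 ± 0.26 (adjusted p = 0.38). The summed erythroid markers were 606, 325 and 150 FPKM in knockouts A, B and C, against 29.5 to 154 at day 0. No erythroid marker tested was called. The macrophage markers were 496, 327 and 203, against 184 to 338. The part of these cells in the Fth1 values was not tested.

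Ftl1 was at 1592, 1449 and 1687 FPKM at day 0, 1469, 1139.9 and 1538 at day 21, 1632, 2341 and 3569 at day 45, 2128 at day 100, 2035 at day 200, and 3193, 2837 and 1316 in the knockout. Both late mice were above day 0, and the day 21, day 45 and knockout mice overlapped it, knockout C being below every day 0 mouse. No comparison of Ftl1 passed (adjusted p from 0.218 to 0.809 against day 0, limma). Without knockout C the knockout was higher by 0.94 ± 0.28 (adjusted p = 0.011, when 62.4% of all genes passed). The ratio of Fth1 to Ftl1 ran from 0.681 in day 45 C to 1.67 in day 21 C.

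Between day 45 and day 21, none of the 10 members passed in limma (0.273% of all genes did), and 1, Ftl1, had an unadjusted p under 0.05. With the replicate letter as a block none of the 10 passed either, and the calls over all genes went from 31 to 1. Between the knockout and day 45 none passed either (9.44% of all genes did), and 1, Slc40a1, had an unadjusted p under 0.05. For Hfe2 and Bmp6 the knockout differed from day 45 by -0.27 (95% interval -0.65 to 0.10) and -0.03 (-0.46 to 0.41).

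FPKM are scaled by transcript length, so levels can be set side by side, though less surely for Hamp, Hamp2, Fth1 and Ftl1. Reads could be divided between the hepcidin genes, and those of the ferritin genes can be shared with processed copies. By group means at day 0 the order was Hamp (2239.7 ± 800.2, SD, n = 3), Ftl1 (1576 ± 120.0), Fth1 (1487 ± 339), Hamp2 (337 ± 269.7), Tfr2 (163 ± 13.3), Slc40a1 (68.8 ± 15.2), Hfe2 (40.0 ± 9.68), Hfe (32.1 ± 2.12), Tfrc (6.35 ± 1.64) and Bmp6 (1.56 ± 0.548). Neighbours whose mice overlapped were Hamp and Ftl1, Ftl1 and Fth1, Hamp2 and Tfr2, and Hfe2 and Hfe. At day 45 Hfe2 (117 ± 6.34) stood above Tfr2 (112 ± 7.39), with overlapping mice, and was apart from Slc40a1 (105 ± 4.17) and Hfe (38.1 ± 0.998). At the late days Bmp6 (9.98, n = 2) stood beside Tfrc (8.22), their mice overlapping.

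Of a wider list of 58 genes of iron handling, 55 were tested. Fam132b, for the hepcidin suppressor erythroferrone, and Il6 were below the filter, and Trf, for transferrin, was listed at 0 in 11 libraries and at 6279, 7843 and 12616 FPKM in day 0 B, day 21 C and knockout C, so no change of Trf is given. Of these, 3 were higher at day 21 (6.2% of all tested genes were), 12 at day 45 (23.7%), 12 at the late days (28.4%) and 10 in the knockout (19.3%). The numbers lower were 0, 0, 0 and 4 (1.42%, 2.99%, 3.21% and 14.5% of all genes), with 2, 2, 1 and 9 at an unadjusted p under 0.05 in limma. The counts of higher genes moved with single mice, as did the share of all genes. That of day 21 was 0 without day 0 B (1.74% of all genes were higher) and 1 without day 21 B (2.96%). It was also 1 without day 21 C (1.78%) or with a replicate block (3.39%). That of day 45 was 7 without day 0 B (16.9%). Leaving out a late mouse leaves a single one, so no list count is given. In the knockout the count higher was 5 without knockout A (11.8%) or B (9.47%) and 6 without day 0 C (14.5%). The count lower was 1 or 2 without any 1 of day 0 B, day 0 C, knockout A and knockout B (4.89% to 7.87% of all genes). With only the 2 groups compared 19 were higher at day 45 (28.9% of all genes), 19 at the late days (33.8%) and 3 in the knockout (7.31%). In those fits 2 were lower at day 21 (3.29% of all genes), 3 at day 45 (5.01%) and 0 in the knockout (2.46%). In the main fit the list's median log2 change was 0.16, 0.35, 0.34 and -0.03 in the 4 comparisons with day 0. With each library centred on its median, which moved the median of all genes from 0.20 to -0.04 at day 45 and from 0.31 to -0.03 at the late days, the list had 7 higher and 2 lower at day 45 and 6 higher and 6 lower at the late days. Of all genes in that fit 14.5% were higher and 7% lower at day 45, and 15.7% and 8.75% at the late days.

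The inflammatory inputs included Socs3, the feedback inhibitor of cytokine signalling, which was higher in all 4 comparisons with day 0 (log2 change 1.13, 1.86, 1.82 and 1.75). Stat3, the factor that binds the hepcidin promoter, was higher at day 45 (0.44), the late days (0.55) and in the knockout (0.55). Inhbb, the subunit of activin B, was higher at the late days (1.91). Of the 5 inflammatory inputs tested 1, 2, 3 and 2 were higher in the 4 comparisons (6.2%, 23.7%, 28.4% and 19.3% of all genes were), and none was lower. At an unadjusted p under 0.05 in limma 0, 1, 0 and 1 were lower. All mice were below the lowest day 0 mouse for 0, 1, 1 and 1 of them (13.1%, 9.37%, 11.6% and 13.3% of all genes). Among receptors and mediators of BMP signalling Neo1, neogenin, a partner of hemojuvelin, was higher at day 45 (0.58) and the late days (0.77), Smad1 at day 45 (0.50), and Furin, a protease that cleaves hemojuvelin, in the knockout (0.66). Of the 12 tested 0, 2, 1 and 1 were higher in the 4 comparisons (6.2%, 23.7%, 28.4% and 19.3% of all genes were), and none was lower. All mice were below the lowest day 0 mouse for 1, 1, 1 and 0 of them (13.1%, 9.37%, 11.6% and 13.3% of all genes).

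Lcn2, the siderophore-binding lipocalin, had the largest change of the list, from 2.27 to 15.1 FPKM at day 0 to 146 to 534 at day 45 and 536 to 2098 in the knockout, and was higher in all 4 comparisons (log2 change 2.58, 4.99, 5.78 and 7.17). Hmox1, haem oxygenase 1, was also higher in all 4 (1.55, 1.78, 1.18 and 1.41). Slc48a1, a haem transporter, was higher at day 45 (1.05) and the late days (0.84), Flvcr1, a haem exporter, at the late days (0.69), and Heph, a ferroxidase that works with ferroportin, at day 45 (0.58) and the late days (1.04). In the knockout Hp, haptoglobin (0.87), and Slc25a28, a mitochondrial iron importer (0.78), were higher. Slc39a8, a metal transporter (-1.15), and Ncoa4, the receptor that sends ferritin to the lysosome (-0.84), were lower there. Without knockout C the list had 18 higher and 16 lower of 55 in the knockout, near the 62.4% of all genes called in that fit.

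The genes whose levels followed a member most closely over the 14 libraries are given as a description, since the libraries fall into the same groups. Those of Hfe2 were Ces1g (Pearson r = 0.976), Apbb1ip (0.940) and Fgr (0.936). Those of Hfe included Cox17 (0.937) and Rps9 (0.933), and those of Slc40a1 were Tcfec (0.909), Hdac8 (0.903) and Aebp2 (0.902). Hamp was followed by Lilrb4 (0.845), its close copy Gp49a (0.842) and Clec4d (0.837), and Tfrc by Snupn (0.841), Papd7 (0.796) and Kif13a (0.794).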

How the data were processed

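Poly-A RNA was sequenced in pairs. The authors mapped it to mm9 with TopHat, took out ribosomal, snoRNA and mitochondrial sequence, and deposited quartile-normalised FPKM (Cufflinks 2.2.1). For small RNA they aligned reads with Bowtie 0.12.7 to miRBase and deposited RPM with 1 added, used here as a score. The rows of the 224 symbols with several rows were summed. limma 3.58.1 (R 4.3.3; lmFit, eBayes with trend) was run on log2(FPKM + 1) for 11354 genes (mean 1 FPKM or more), all 5 groups entering a single model, with Benjamini-Hochberg adjustment inside each of 6 comparisons. The fit was also run on simulated data as a check of the code, which does not test the calls in these mice. A fold change on the log2(FPKM + 1) scale understates the change of low genes. Of the tested genes 20 (0.176%) were at 0 in a library and over 100 FPKM in another, and listed genes among them were left out. Mice with the same letter deviated together between day 21 and day 45 (correlations over genes 0.236 to 0.501, and -0.411 to 0.262 for other letters), so the blocked value is given there. This comes from the data and not from the labels, and C was in both groups the library with Y-linked transcripts. Each library is 1 animal, and p-values measure the spread between these mice. Sex is not in the labels. Named genes were all members, up to 3 per role of the wider list by number of calls, and the 3 genes most like each of 5 members, of which a few are not reported here. The members and lists were chosen with earlier results of these data known. Alternatives covered the pseudocount, filter, centring, groups fitted, left-out mice, replicate block, trend, summed rows and, for miR-122, the denominator, and, added after the data were seen, Y-linked transcripts, summed hepcidins and the late days against day 45.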

Additional observations from a re-analysis of the deposited data

Results flagged for a closer look

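No member passed the test of the knockout against day 45, which compares their changes from day 0, but 5 of 55 genes of the wider iron list did (limma, adjusted p below 0.05), a share near the 9.44% of all tested genes and so not particular to the list. Id3 and Id2, targets of BMP-SMAD signalling, were lower in the knockout than at day 45 by -1.23 and -1.08 on the log2 scale (adjusted p = 0.040 and 0.043), with 3 of 3 knockouts below all day 45 mice. Id3 was at 127 to 178 FPKM at day 45 and 54.4 to 77.5 in the knockout, against 53.0 to 105 at day 0. Cd163, the macrophage receptor for haemoglobin bound to haptoglobin, differed by -1.86 (adjusted p = 0.021). Ncoa4 differed by -1.001 (adjusted p = 0.044) and Slc25a37, mitoferrin 1, by -0.996 (adjusted p = 0.032). All 5 calls were lost when any 1 mouse of the pair of groups other than knockout C was left out, where the list had 0 lower calls (1.49% to 3.26% of all genes were lower). The list had 22 lower and 7 higher calls without knockout C, when 52.2% of all genes were called. It had 3 lower with no filter, 1 with centring, 2 with the replicate block and 0 with only the 2 groups compared. The shares of all genes lower in those 4 fits were 6.01%, 1.93%, 3.29% and 0.37%. Depth was lower in the knockout libraries, and the part of depth, of colony and of the cell types listed above in these differences was not tested.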

How the results depend on the processing

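Over the members' log2 changes, 886 alternative values were computed, of which 857 kept their side of the threshold, 8 lost it, 21 gained it and 0 reversed. The number of members called at day 21 was 2 in place of 1 with a pseudocount of 0.1 FPKM, with only the 2 groups compared, without the libraries with Y-linked transcripts and with those transcripts as a covariate (9.5%, 15.6%, 5.65% and 8.93% of all genes called), and 1 to 2 with a mouse left out (2.14% to 5.66%). At day 45 it was 4 in place of 2 with only the 2 groups compared (33.9%), and 2 to 3 with a mouse left out (15.7% to 24.1%). At the late days it was 2 with any mouse left out. In the knockout it was 1 in place of 3 with only the 2 groups compared (Bmp6 and Fth1 lost, with 9.77% of all genes called), 5 without the libraries with Y-linked transcripts (57.4%), and 2 to 5 with a mouse left out (14.4% to 62.4%). Between the knockout and day 45 it was 3 in place of 0 without the libraries with Y-linked transcripts (49.5%) and 0 to 2 with a mouse left out (2.03% to 52.2%). The causes were not tested. Calls over all genes moved most with knockout C, from 3833 to 7088 in the knockout and from 1072 to 5922 against day 45. Centring changed the split of all calls at day 45 from 2688 higher and 339 lower to 1644 and 795, and at the late days from 3227 and 365 to 1785 and 993. The miR-122 amount per read of other microRNAs was 2.06 (day 0), 0.128 (day 21), 0.0085 (day 45), 0.0466 (day 100) and 0.236 (day 200).

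Over all groups the letters A to C did not pair the mice: 8 of 18 same-letter pairs and 15 of 36 others correlated above 0.1 in their deviations. For day 21 with day 45 all 3 same-letter pairs did (0.236 to 0.501). With the letter as a replicate block the members called were 1, 2 and 3 at day 21, at day 45 and in the knockout (4.14%, 23.5% and 26.6% of all genes were). All genes called were 470 in place of 865 at day 21, 1 in place of 31 between day 45 and day 21, and 447 in place of 1072 between the knockout and day 45. The block changed no member's call.

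With 3 mice a group, and 2 at the late days, differences of Hamp, Hamp2, Tfrc and Ftl1 smaller than their intervals were not detectable, and the late group joins mice of different ages.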
